A study of Mus musculus with 2 samples.

Results

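The 10 genes described here make or assist the machinery that shows peptides on major histocompatibility complex (MHC) class II. They were chosen by symbol, as H2-Aa, H2-Ab1, H2-Eb1, Cd74, H2-DMa, H2-DMb1, H2-DMb2, H2-Oa, H2-Ob and Ciita, and all 10 were found among the 32285 genes counted. Their transcripts were followed through the cell classes of mouse pancreatic tumours, measured by droplet single-cell RNA-seq. KPC cells, a mouse pancreatic cancer line, had been implanted into the pancreas and tumours were taken 21 days later. The control hosts were Porcnfl/fl (WT) and the knockout hosts were Csf1r-Cre;Porcnfl/fl (KO), littermates that all carried the floxed Porcn allele. Porcn encodes the enzyme that fits Wnt proteins for secretion, and the Cre is driven by Csf1r, a gene of monocytes and macrophages. The implanted cancer cells do not come from the mice that carry the Cre. Each group was a single library, for which the tumours of 5 mice had been pooled, so the spread between mice is unknown, no test between the genotypes was possible and no p-value is given. Every difference lies between 2 libraries.

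MHC class II molecules are pairs of an alpha and a beta chain that carry peptides from the endosome to the cell surface, where CD4+ T cells read them. Dendritic cells, B cells and macrophages make them all the time or on activation, and many other cells, cancer cells among them, can be made to do so by interferon gamma. Ciita, the coactivator that switches the whole set on, has no DNA-binding domain of its own and is held on the promoters by RFX, which sits on the X box, and NF-Y, which sits on the Y box. On GRCm38 Ciita lies on chromosome 16 (10480059 to 10528418, GENCODE M21), as a protein-coding gene away from the other members.

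Of the 10 genes, 8 lie within 224 kb of chromosome 17 (34092340 to 34316674 on GRCm38, GENCODE M21). RefSeq promoter entries (GRCm38.p6, 250 bases before the gene start to 50 after it) were matched for 7 of the 10 members. A Y box core (GATTGG, either strand) was found in an entry of each of the 7, and in 16.1% of all 32851 promoters. An X box core (AAC, 2 bases of any kind and ATGATG, either strand) was found in 4, H2-DMb1, H2-DMb2, H2-Ob and H2-Eb1, and in 0.137% of all promoters. Both cores together were in 0.0335% of all promoters. The stretches below are shown for a classical alpha chain gene, a classical beta chain gene, a chain of the peptide editor H2-DM and a chain of its inhibitor H2-O. Capitals mark the X box core and then the Y box core, except in H2-Aa, where only the Y box core matched these letters. Over the 4 genes with both, the spacing between the cores ran from 16 bases in H2-Ob to 19 in H2-DMb1 and H2-DMb2. A match is a description of the letters and not evidence of binding.
H2-Aa, chr17:34287862-34287914, minus strand: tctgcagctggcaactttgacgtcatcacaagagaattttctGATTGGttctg
H2-Eb1, chr17:34305768-34305817, plus strand: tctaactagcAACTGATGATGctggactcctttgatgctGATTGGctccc
H2-DMb2, chr17:34145118-34145168, plus strand: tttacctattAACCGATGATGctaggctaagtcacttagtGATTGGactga
H2-Ob, chr17:34238810-34238857, plus strand: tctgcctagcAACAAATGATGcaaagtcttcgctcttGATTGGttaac

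The control library held 173934025 unique molecular identifiers (UMIs, counted molecules) over 13766 barcodes, and the knockout library 137527647 UMIs over 12251. After filtering, 11516 and 10467 cells were kept, with medians of 12167.5 and 10109 UMIs per cell. The libraries shared 46 barcodes. Members made up 489869 UMIs of the kept control cells and 535677 of the kept knockout cells. Cells were clustered without the class II genes, so that their level did not set the classes. Levels are CPM, UMIs of a gene divided by all UMIs of the same class in the same library and scaled to 1000000. Intervals in parentheses are exact 95% intervals that cover counting error only.

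Class II transcripts were highest in dendritic-like cells and were also plentiful in the tumour cells. The chains H2-Aa, H2-Ab1 and H2-Eb1 and the invariant chain Cd74, which guards the groove until peptide is loaded, were summed to place the classes in order. Cd74 is the other member that lies apart, on chromosome 18 (60803848 to 60812652 on GRCm38). In control that sum was 36539 CPM in Cd209a dendritic (cDC2)-like cells (13 cells), 27690 in cDC1-like cells, 17497 in monocyte/macrophage-like cells and 12848 in migratory dendritic-like cells. The 7 B-like control cells stood at 8057, plasma-like cells at 4507, mesothelial-like cells at 2849 and epithelial/tumour-like cells at 2489 CPM. In knockout the top was again Cd209a dendritic-like at 38168, cDC1-like at 35853 and monocyte/macrophage-like at 21697 CPM. B-like cells followed at 17005, migratory dendritic-like at 12322, plasma-like at 7333, mesothelial-like at 3496 and epithelial/tumour-like at 3175 CPM. Neighbours down to the tumour cells did not overlap in their counting intervals in either library. T-like cells, which as a rule lack class II in mice, were at 127 CPM in the control library (102 to 158) and at 253 CPM in the knockout library (241 to 265). The 3 highest T-like cells held 28.2% and 29.9% of those UMIs, and the source of the T-like level was not tested. NK-like cells, at 251 and 197 CPM, overlapped with neutrophil-like cells in control and with fibroblast-like cells in knockout. Mesothelial-like cells numbered 48 and 31 and also held 2169 and 1198 CPM of the 7 epithelial marker genes, against 6173 and 6355 CPM in epithelial/tumour-like cells. The part of those markers in the mesothelial level was not tested.

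**Figure D1:**
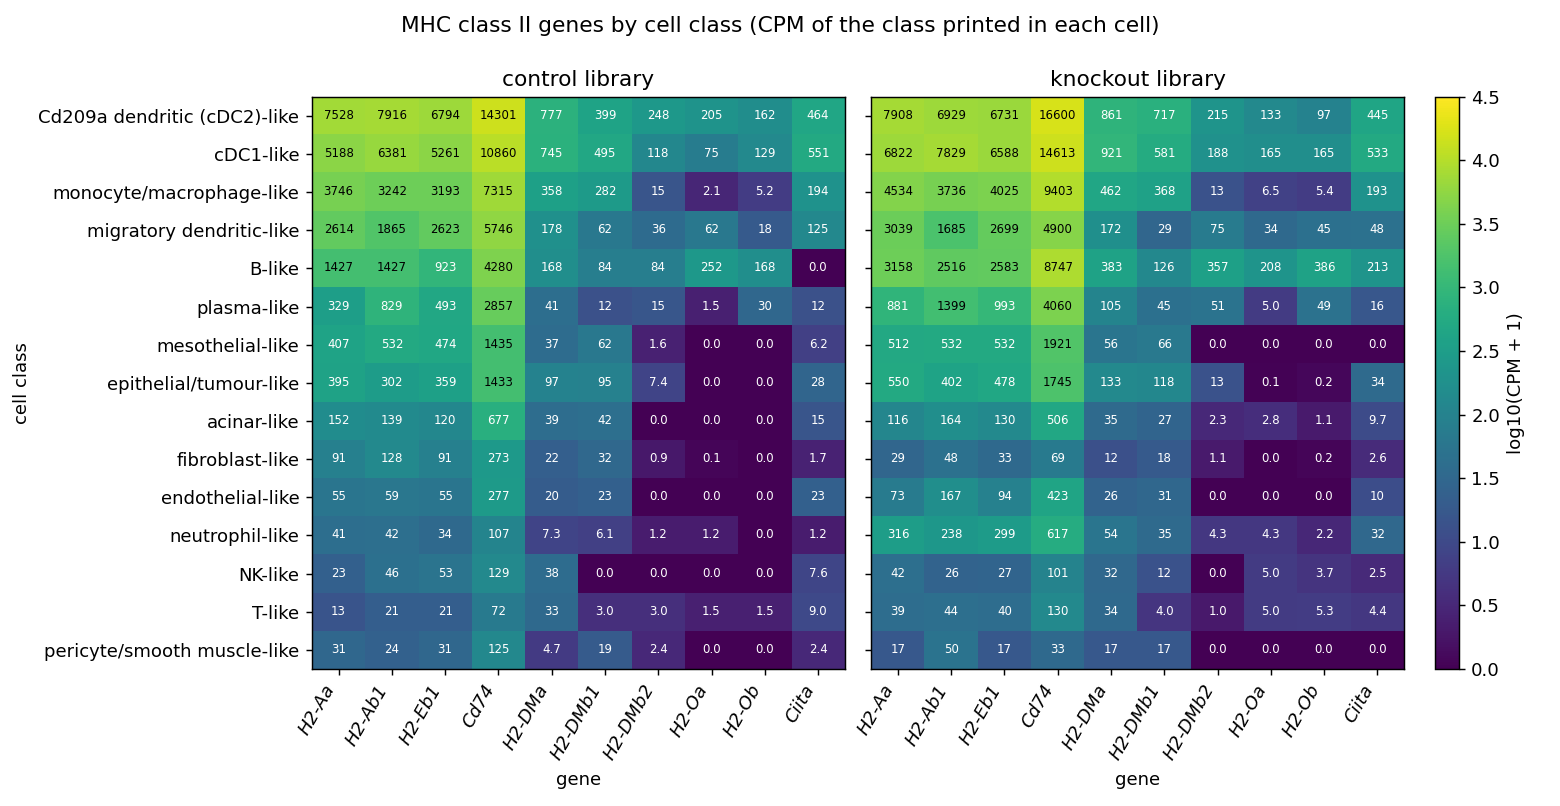
CPM of each of the 10 members (columns) in each cell class (rows) of the control and knockout libraries, with colour on a log10(CPM + 1) scale and the CPM printed in each square. The dendritic-like, macrophage-like and B-like rows are brightest for H2-Aa, H2-Ab1, H2-Eb1 and Cd74. The plasma-like, mesothelial-like and epithelial/tumour-like rows come next. In the epithelial/tumour-like row Ciita is at 28.4 and 34.4 CPM, H2-DMb2 at 7.36 and 12.9 CPM, and H2-Oa and H2-Ob are the darkest.

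Epithelial/tumour-like cells were the most numerous (9412 and 5960 cells) and held most of the class II transcripts. They accounted for 82.7% of member UMIs in control (82.6 to 82.9) and 64.3% in knockout (64.2 to 64.5). Both are below their shares of all UMIs, 88.4% and 76.8%. For Ciita the share was 83.1% and 65.9%. H2-Oa and H2-Ob, whose products pair as the H2-O inhibitor of peptide exchange, were placed elsewhere. The tumour cells held 2 of 83 H2-Oa UMIs in control and 7 of 643 in knockout, and 5 of 112 and 21 of 1055 H2-Ob UMIs.

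In the tumour cells 8 of the 10 members stood above the level that free RNA could give, in both libraries. That level was set from leukocyte genes the tumour cells should lack, taking the highest of 3 lists. In control that was the B-cell list, at 10.9% of its level over all kept cells, and in knockout the macrophage list, at 3.48%. The macrophage list stood at 3.63% in control, so the multiples given here are not compared between the libraries. Control tumour cells had H2-Aa at 395 CPM (391 to 398), 8.23 times its free RNA level, and knockout tumour cells at 550 CPM (545 to 554), 23.1 times. Cd74 was at 1433 CPM, 8.87 times, and at 1745 CPM, 25.3 times. Both libraries thus held tumour cells well above background for the antigen-presenting chains. Ciita was at 28.4 and 34.4 CPM, 8.59 and 24.7 times its free RNA level. H2-DMa and H2-DMb1, the chains of the H2-DM peptide editor, were at 96.9 and 94.6 CPM in control and 133 and 118 CPM in knockout, 9.13 to 30.2 times. H2-Oa and H2-Ob were not above their free RNA level in either library, at 0.249 and 0.462 times in control and 0.407 and 0.744 times in knockout. For H2-Ob the counting interval reached past that level in both, in knockout from 0.131 to 0.324 CPM around a level of 0.284 CPM. Tumour cells with no UMI of 8 leukocyte genes, 93.0% of them in control and 86.9% in knockout, stood at 2492 and 3220 CPM for the 4 summed genes, close to 2489 and 3175 CPM in the whole class.

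Many single tumour cells carried H2-Aa, H2-Ab1 and Cd74 together, and fewer were seen with a wider set. H2-Aa, H2-Ab1 and Cd74 were all seen in 65.4% of control tumour cells (64.4 to 66.3) and 68.9% of knockout tumour cells (67.7 to 70.1), at median depths of 13261.5 and 14690 UMIs. In T-like cells the same 3 genes were all seen in 0.521% of control cells (1 of 192) and 0.919% of knockout cells, at median depths of 2794.5 and 3340 UMIs. When each cell was thinned to 5000 UMIs the tumour shares were 49.2% and 58.7%, and the T-like shares 2.44% (1 of 41 cells) and 2.08%. With H2-DMa and at least 1 of H2-DMb1 and H2-DMb2 added, the thinned tumour shares were 14.2% and 21.8%. The same set was seen in 54.1% and 59.7% of thinned macrophage-like cells and in 88.9% and 91.2% of thinned cDC1-like cells. With Ciita added as well, the thinned tumour shares were 3.05% and 4.85%. At 1000 UMIs per cell the median tumour cell held 2 UMIs of the 4 summed genes in both libraries. The share with at least 5 such UMIs was 21.0% in control (20.2 to 21.8) and 29.9% in knockout (28.8 to 31.1), so the libraries differed in the upper part of the distribution.

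The tumour cells of the knockout library held modestly more of nearly every member. The summed level was 1.28 times that of control (1.27 to 1.28). H2-Aa was 1.39 times as high (1.38 to 1.41), H2-Ab1 and H2-Eb1 both 1.33 times, Cd74 1.22 times and Ciita 1.21 times (1.16 to 1.27). H2-DMa was 1.37 times as high and H2-DMb1 1.25 times. H2-DMb2, the second beta chain gene of H2-DM, went from 7.36 to 12.9 CPM, 1.75 times (1.61 to 1.90). All 9 members with at least 20 UMIs were higher in knockout, with a median log2 ratio of 0.41 against -0.07 over the 17027 genes with as many UMIs. Only H2-Ob passed 2-fold, where 2.84% of those genes were at least 2-fold higher and 3.72% at least 2-fold lower. That value rests on 5 and 21 UMIs, neither above the free RNA level. Beside it, B-cell genes (Cd79a, Ms4a1 and Cd79b) went from 0.369 to 1.15 CPM in tumour cells as B-like cells went from 7 to 443, and their part in the H2-Ob value was not tested.

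**Figure D2:**
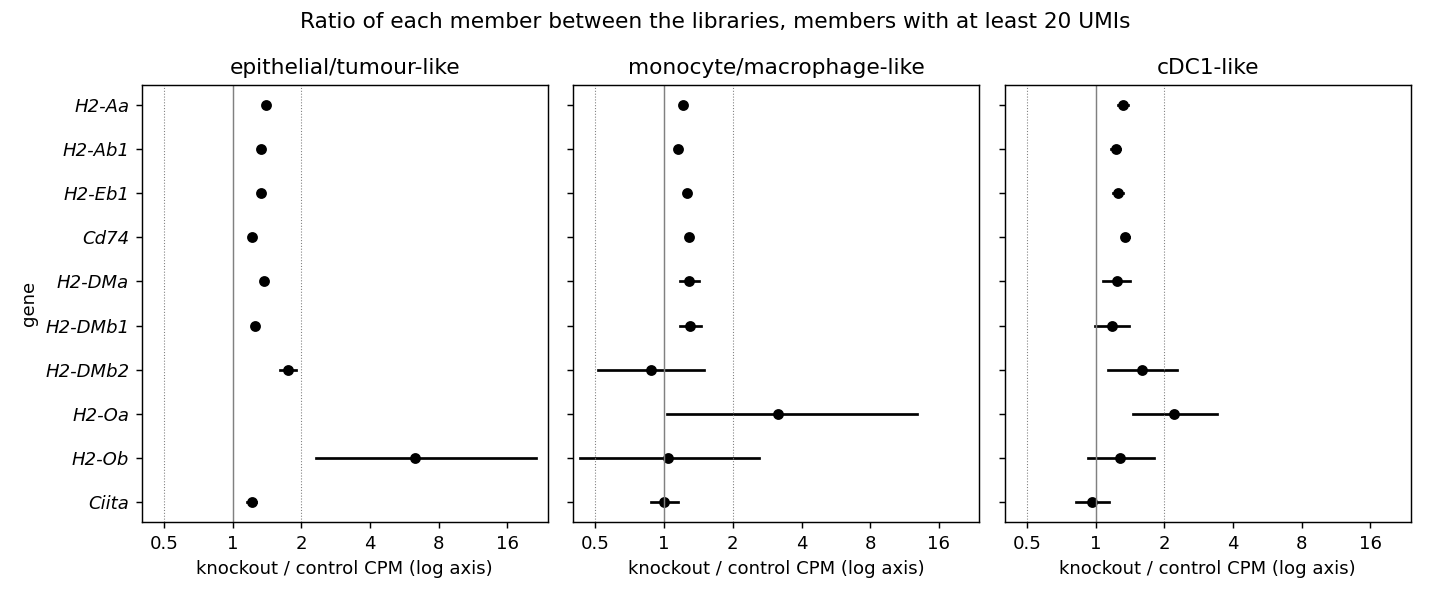
Knockout over control ratio of CPM (log axis) in epithelial/tumour-like, monocyte/macrophage-like and cDC1-like cells, for each member that reached 20 UMIs there, with points for the ratio, bars for the exact 95% counting interval and dotted lines at 2-fold. The 4 summed genes and H2-DMa lie to the right of 1 in all 3 panels, while Ciita lies near 1 in the macrophage-like and cDC1-like panels.

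The tumour class was made of 10 clusters whose class II levels spanned a wide range, and the difference between libraries was not shared by all of them. Highest in both libraries was cluster 31, led by Cxcl10, Cxcl9 and Serpina3g, with all 6 markers of the interferon-high subset detected. Its summed level was 4713 CPM in control and 5088 in knockout, a ratio of 1.08 (1.07 to 1.09). Its Ciita was 78.6 and 76.1 CPM, the highest of the 10 clusters in both libraries. Lowest was cluster 30, led by Dynap and Inhba (1064 and 1517 cells), at 726 and 656 CPM, a ratio of 0.904 (0.884 to 0.924), with Ciita at 6.45 and 6.29 CPM. Of the same 6 interferon-high markers, 5 were detected in cluster 30 and 4 in cluster 36. Their detection alone thus did not separate the highest cluster from the lowest.

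Larger ratios were seen in 5 clusters with control levels from 2025 to 3307 CPM. In cluster 33, led by Cxcl12 and Tmeff2 (2486 and 1108 cells), the sum went from 2544 to 4026 CPM, a ratio of 1.58 (1.57 to 1.60), and Ciita from 37.0 to 53.4 CPM. Cluster 26, led by Lgals4 and Gsta4, went from 2900 to 4533 CPM, a ratio of 1.56. Cluster 36, with all 5 cycling markers detected, went from 2025 to 3430 CPM, a ratio of 1.69 (1.67 to 1.72). Clusters 28 (led by Pkhd1) and 32 (led by A230057D06Rik and Tnr) both had ratios of 1.38. H2-DMb2 had ratios of 2.56 in cluster 26, 2.95 in cluster 32 and 2.80 in cluster 33. In all, 7 of 10 clusters were higher in knockout with an interval above 1, and 2 were lower with an interval below 1. The second of the lower ones, cluster 27, had a median of 4180 UMIs per cell and went from 1564 to 1331 CPM while its Ciita went from 36.8 to 68.8 CPM. Cluster 34, led by Crabp2 and Serpinf1 (366 and 38 cells), was at 1018 and 993 CPM, the closest pair of the 10. All 5 cycling markers were detected in cluster 34 too, as in cluster 36. Weighting the clusters alike in both libraries raised the ratio of the whole class to 1.40.

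**Figure D3:**
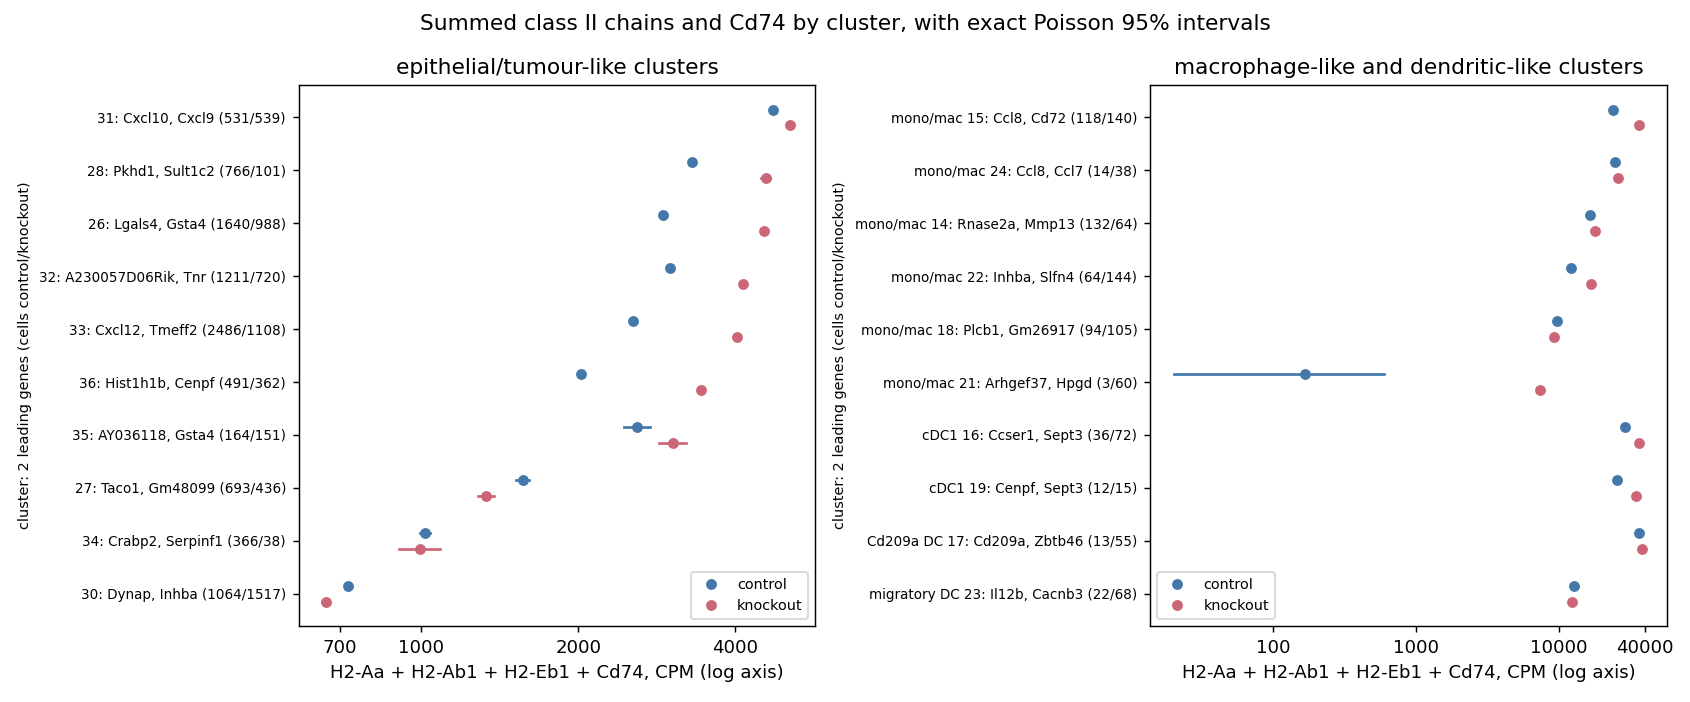
Summed CPM of H2-Aa, H2-Ab1, H2-Eb1 and Cd74 (log axis) in each epithelial/tumour-like cluster (left) and each macrophage-like and dendritic-like cluster (right), control in blue and knockout in red, with exact Poisson 95% intervals. Tumour clusters run from 656 CPM in cluster 30 to 5088 CPM in cluster 31, and the control value of cluster 21 rests on 3 cells.

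Across the tumour clusters the level of Ciita followed that of its target genes only in part. Over the 19 values from clusters with at least 50 cells in a library, log2 of the summed level had a Pearson r of 0.69 with log2 of Ciita and 0.57 with log2 of Irf1. These points share 2 libraries, and clusters 27 and 35 have low depth, so the r values are descriptions only. Cluster 27 stood apart, with more Ciita than clusters of a like class II level.

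**Figure D4:**
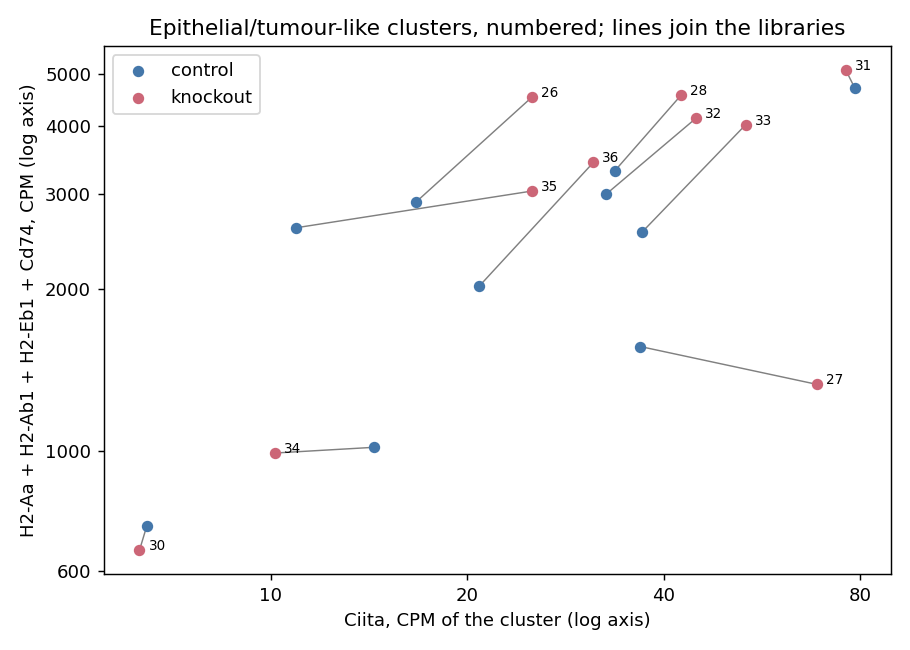
Ciita CPM against summed class II CPM (both log axes) in the 10 numbered epithelial/tumour-like clusters, with control in blue, knockout in red and a line joining the values of 1 cluster. Clusters 30 and 34 lie low on both axes, cluster 31 high on both, and clusters 26, 28, 32, 33, 35 and 36 move up and to the right from control to knockout.

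Macrophage-like cells also had a higher summed class II level in the knockout library, without more Ciita and with the same thinned level in the median cell. The summed level was 17497 CPM in 425 control cells and 21697 CPM in 551 knockout cells, a ratio of 1.24 (1.22 to 1.26). H2-Aa was at 3746 and 4534 CPM, H2-Ab1 at 3242 and 3736, H2-Eb1 at 3193 and 4025, and Cd74 at 7315 and 9403. Each of these 4 ratios, 1.15 to 1.29, had an interval above 1. Ciita was at 194 CPM (174 to 214) and 193 CPM (177 to 211), with an interval of the ratio from 0.873 to 1.15. H2-DMa and H2-DMb1 had ratios of 1.29 and 1.30. H2-DMb2 was at 14.5 and 12.7 CPM and H2-Ob at 5.19 and 5.37 CPM, with intervals that overlapped between the libraries. The median log2 ratio of the 10 members was 0.30, beside -0.003 over 9802 genes. Of the members only H2-Oa passed 2-fold, on 4 and 17 UMIs, where 3.32% of genes were at least 2-fold higher and 2.51% lower. Thinned to 1000 UMIs, the median macrophage-like cell held 10 UMIs of the 4 summed genes in both libraries. The share with at least 5 was 74.2% in control (69.7 to 78.4) and 69.6% in knockout (65.5 to 73.4), while the 90th percentile was 36 and 45 UMIs. H2-Aa, H2-Ab1 and Cd74 were all seen in 76.7% and 71.9% of cells, at median depths of 2819 and 3899 UMIs, and in 88.3% and 87.2% of the 111 and 196 cells that could be thinned to 5000. Of these per-cell measures only the 90th percentile was higher in knockout.

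Within the macrophage-like class the difference sat in some clusters. Cluster 15, led by Ccl8, Cd72 and Vcam1 with all 5 markers of the C1q macrophage subset, went from 24054 to 36467 CPM, a ratio of 1.52 (1.48 to 1.55). All 5 C1q markers were also detected in clusters 14, 22 and 24, and 4 of them in cluster 18. Cluster 22, led by Inhba, Slfn4 and Rsad2, went from 12231 to 16745 CPM, a ratio of 1.37 (1.31 to 1.43). Cluster 14, led by Rnase2a and Mmp13, had a ratio of 1.09 (1.06 to 1.11), while cluster 24 had 1.04 (0.988 to 1.10) and the low-depth cluster 18 had 0.968 (0.908 to 1.03). Ciita had no interval above or below 1 in any of the 5 clusters with at least 20 Ciita UMIs. Cluster 21 held 3 control and 60 knockout cells and stood at 7356 CPM in knockout, the lowest of the 6 clusters there. All 6 markers of the Ly6c2 monocyte subset were detected in it, as they were in cluster 22. Without cluster 21 the ratio of the class was 1.33.

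cDC1-like cells, the dendritic cells that present to CD8+ T cells best, also held more of the summed genes in knockout. Their summed level was 27690 CPM in 48 control cells and 35853 CPM in 87 knockout cells, a ratio of 1.29 (1.27 to 1.32). Cluster 16, led by Ccser1, had a ratio of 1.25 and cluster 19, with all 5 cycling markers detected, a ratio of 1.37. Ciita was at 551 and 533 CPM, a ratio of 0.967 (0.821 to 1.14). H2-Oa went from 75.3 CPM (28 UMIs) to 165 CPM (160 UMIs), 2.20 times (1.46 to 3.41), and was the only member past 2-fold, where 3.28% of genes were at least 2-fold higher and 5.62% lower. H2-Ob, its partner, was at 129 and 165 CPM, with a ratio of 1.28 (0.922 to 1.81). The intervals of the 2 ratios overlapped, and the difference between them was not tested. Of 12 monocyte/macrophage markers 12 had a UMI in the control cDC1-like cells, at a summed 1355 CPM, and 10 in the knockout cells, at 390 CPM with F13a1 and Vcan at 0. The cDC1 markers summed to 3949 and 4291 CPM, all 7 detected in both, and the part of the macrophage markers in these ratios was not tested.

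In the other dendritic classes the summed levels of the libraries were close. In Cd209a dendritic-like cells (13 and 55 cells) the ratio of the sum was 1.04, with an interval that ended at 1.09, and with H2-Ab1 at 0.875 and Cd74 at 1.16. The widest difference of a member there was H2-DMb1 at 1.80 (1.26 to 2.63), while H2-Oa at 0.648 and H2-Ob at 0.599 had intervals that held 1. Migratory dendritic-like cells (22 and 68 cells) had a ratio of 0.959 (0.905 to 1.02). There H2-DMb1 and Ciita were the 2 members past 2-fold, both lower, on 7 against 13 and 14 against 21 UMIs, where 6.94% of genes were at least 2-fold lower and 6.16% higher. A single control cell held 49.6% of the summed UMIs of the 22. Those 22 cells also had 1588 CPM of the epithelial marker genes, against 265 CPM in the knockout cells, and the part of other cell types in these values was not tested.

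B-like cells held the largest share of the H2-O transcripts of the knockout library. The class held 7 control cells and 443 knockout cells, so its control levels rest on a total of 105 member UMIs and no ratio is given. In the knockout B-like cells H2-Ob was at 386 CPM (355 to 418) and H2-Oa at 208 CPM (186 to 232). Per 1000 UMIs of Cd74, H2-Ob had 44.1 UMIs in these B-like cells, 11.3 in knockout cDC1-like cells, 0.571 in knockout macrophage-like cells and 0.121 in knockout tumour cells. H2-DMa, by contrast, had 43.8, 63.0, 49.1 and 76.1 UMIs per 1000 Cd74 UMIs in the same 4 classes. The classes thus lay close together for the editor and far apart for its inhibitor. B-like cells held 56.4% of the knockout library's H2-Ob UMIs and 49.9% of its H2-Oa UMIs. For H2-DMb2 they held 550 of 2378 UMIs, against 1277 in the tumour cells. In control, cDC1-like cells held the largest shares of any named class, 42.9% of 112 H2-Ob UMIs and 33.7% of 83 H2-Oa UMIs. Over all kept cells H2-Ob went from 0.664 to 8.16 CPM and H2-Oa from 0.492 to 4.97 CPM, beside the change in B-like cells from 7 to 443.

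The 2 genes for the beta chain of H2-DM were used differently by cell class. Their transcripts are 75.3% identical over the whole alignment and 43.9% over the last 500 bases, the end that 3′ libraries read. The share of H2-DMb2 among the UMIs of both is not scaled for length and is compared only between classes. It was 73.8% in knockout B-like cells (70.5 to 76.9), 71.7% in knockout migratory dendritic-like cells (56.5 to 84.0) and 53.0% in knockout plasma-like cells. cDC1-like cells had 19.3% and 24.4%, with intervals that overlapped. Macrophage-like cells had 4.90% and 3.33%, also with overlapping intervals. Tumour cells went from 7.22% (6.81 to 7.64) to 9.81% (9.30 to 10.3), and within them the control share ran from 1.52% in cluster 34 to 14.5% in cluster 31.

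**Figure D5:**
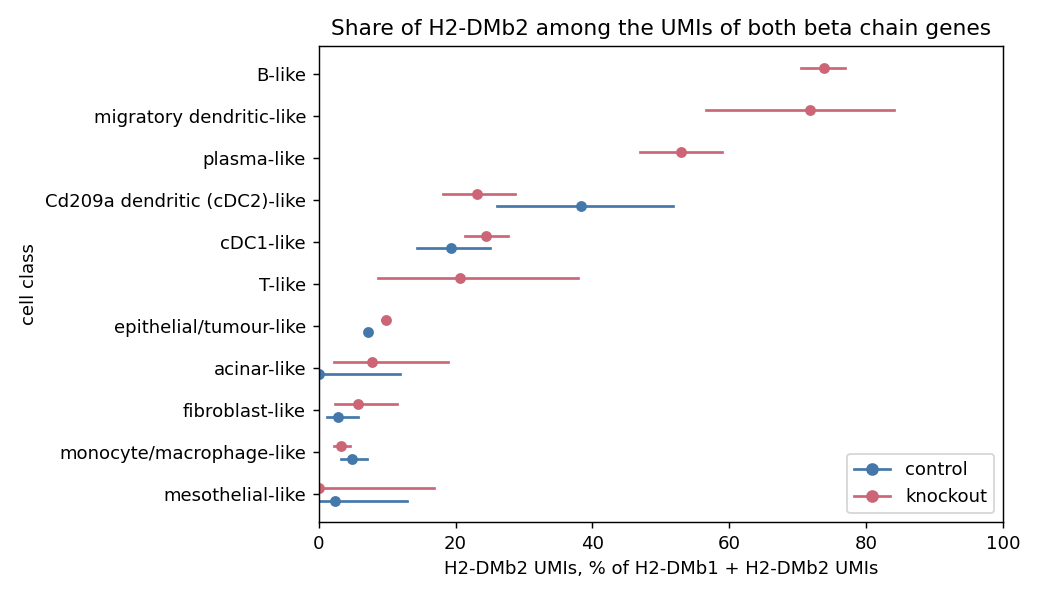
H2-DMb2 UMIs as a percentage of H2-DMb1 and H2-DMb2 UMIs (axis from 0 to 100) in each class with at least 20 such UMIs, control in blue and knockout in red, with exact binomial 95% intervals. Knockout B-like cells are at 73.8% and knockout macrophage-like cells at 3.33%.

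In plasma-like cells 5 of 9 members passed 2-fold, all higher in knockout, where 12.2% of genes were at least 2-fold higher and 3.39% lower. H2-Aa went from 329 to 881 CPM and H2-DMa from 41.1 to 105 CPM. The sum went from 4507 to 7333 CPM, a ratio of 1.63 (1.57 to 1.69). Cluster 13, led by Mzb1, with 2 control and 39 knockout cells, held 10052 CPM in knockout. Without it 2 members passed 2-fold and the ratio was 1.46.

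The differences in neutrophil-like cells rested on a few cells, and those in fibroblast-like cells on 1 cluster. In neutrophil-like cells the sum went from 224 to 1470 CPM and all 6 members with at least 20 UMIs were past 2-fold higher, where 7.42% of genes were and 7.29% were past 2-fold lower. However, 1 of the 185 knockout cells held 363 of the 679 UMIs, and 3 cells held 80.9%. Without cluster 5, which holds that cell, 3 members passed 2-fold and the ratio went from 6.56 to 2.78. Of the 287 knockout UMIs of cluster 10, which remained, 1 cell held 175. In fibroblast-like cells the sum went from 584 to 178 CPM and 4 of 7 members were past 2-fold lower, where 5.16% of genes were and 7.87% were past 2-fold higher. Cluster 38, led by Saa3 and Slit3, held 3930 of the 4405 control UMIs and went from 198 cells in control to 26 in knockout. Of the 198, 151 had a UMI of the summed genes, and the 3 highest held 25.7% of the cluster's UMIs. Without it 0 members passed 2-fold and the ratio was 1.20 (1.07 to 1.34), in the opposite direction. In T-like cells 1 of 9 members (H2-Aa) was past 2-fold higher and 1 (Ciita) past 2-fold lower, beside 4.34% and 5.81% of genes, at levels from 1.03 to 130 CPM in knockout.

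Of 28 other genes listed for the pathway 27 were matched, and few of them passed 2-fold in the tumour and macrophage-like cells. In tumour cells 1 of 26 with at least 20 UMIs was past 2-fold higher and 0 lower, beside 2.84% and 3.72% of genes. It was H2-Eb2, another class II beta gene next to H2-Eb1, at 0.630 and 1.45 CPM (94 and 144 UMIs). Irf1, an interferon-induced transcription factor, was at 139 and 152 CPM, a ratio of 1.09. Rfx5, the RFX subunit, had a ratio of 1.08 (0.986 to 1.18). Over the 26 genes the median log2 ratio was -0.04, and 11 were above 0. In macrophage-like cells 0 of 26 passed 2-fold in either direction, beside 3.32% of genes higher and 2.51% lower. Irf1 was there at 137 and 238 CPM, a ratio of 1.74 (1.50 to 2.01), while Ctss, the protease that trims Cd74, was at 3894 and 3067 CPM, a ratio of 0.788 (0.763 to 0.813). In cDC1-like cells Cd40, a costimulatory receptor, was the only 1 of 24 past 2-fold higher, at 16.1 and 47.5 CPM (6 and 46 UMIs). The 4 of 24 past 2-fold lower were Ctsl, Ctsd, Lgmn and Cd80, where 3.28% of genes were at least 2-fold higher and 5.62% lower. The macrophage markers went from 1355 to 390 CPM in the same cells, and Ctsd, a lysosomal protease, was at 78.0 and 16.5 CPM there beside 1696 and 943 CPM in macrophage-like cells. The part of those markers in the lower values was not tested. In neutrophil-like cells 8 of 22 were past 2-fold higher and 0 lower, beside 7.42% and 7.29% of genes. Among the 8 were Ifi30 on 6 and 37 UMIs and Ctss on 50 and 110. There C1qa, C1qb and C1qc together went from 4.85 to 88.8 CPM, while the 12 monocyte/macrophage markers went from 630 to 453 CPM. The part of macrophage-like transcripts in these values was not tested. In plasma-like cells 2 of 25 were past 2-fold higher, Cd86 (2 and 76 UMIs) and Cd40 (2 and 28 UMIs). There March8 (6 and 14 UMIs) was the only 1 past 2-fold lower. Beside them, 12.2% of genes were at least 2-fold higher and 3.39% lower.

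Over 19 profiles of a class and library with at least 50 cells, the genes most like the mean log2 level of the 4 summed genes were sought among 7617 genes. Members outside that mean had a Pearson r of 0.92 for H2-DMa, 0.92 for Ciita, 0.88 for H2-DMb2, 0.87 for H2-DMb1, 0.73 for H2-Ob and 0.68 for H2-Oa. The leading other gene was Gm20513, with an r of 0.90, an antisense gene that shares 2204 bases with H2-Eb1. Within those shared bases, reads of the 2 genes cannot be told apart by position alone. Ly86 (0.89), Hpse (0.88), Rubcnl (0.86), Ifi30 (0.86), the endosomal reductase, and Cd180 (0.83) and Cd40 (0.82) were among the next 9. The profiles share 2 libraries and many are leukocyte classes, so these values describe a likeness of pattern over cell classes.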

How the data were processed

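Each library held the pooled tumours of 5 mice, digested and run on a 10x 3′ kit. The deposited values are raw UMI counts per gene and barcode, and the file headers name Cell Ranger 8.0.0, while the submitters' processing notes list Cell Ranger 3.1.3 and mm10. The cell filter asked for 500 genes or more and no more than 15% of UMIs from mitochondrial genes. Scrublet (scanpy 1.11.5) called 148 control and 341 knockout doublets, which were removed. The 2000 most variable genes, without class II genes, gave 30 principal components and Leiden clusters (resolution 1), named "-like" from marker lists needing 3 detected markers. Members and lists were chosen with earlier results of these data known. UMIs were summed per class, and ratios with a pseudocount of 1 UMI called at 2-fold with at least 20 UMIs. All members were named. The rest were drawn from pathway genes past 2-fold (up to 5 a direction) and the 10 most like the members, and not all of these are named. A few others from the same lists (Irf1, Rfx5 and Ctss) were named after their values were seen, and 1 is not reported here. The ratio code was tested on simulated data.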

Additional observations from a re-analysis of the deposited data

How the results depend on the processing

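Leaving out a replicate was not possible with 1 library per group, and no fit across libraries exists to vary. No paired analysis was possible because each group has 1 library. The direction held under every alternative run for the tumour, macrophage-like and cDC1-like ratios of the summed level (1.28, 1.24 and 1.29). In that order they were 1.24, 1.32 and 1.21 with the loose cell filter, 1.29, 1.18 and 1.16 with the strict one, and 1.28, 1.28 and 1.17 at Leiden resolution 0.5. Averaging over cells gave 1.25, 1.17 and 1.41, thinning to 1000 UMIs 1.25, 1.17 and 1.43, and subtracting free RNA 1.38, 1.97 and 1.53. The values of 1.97 and 1.53 are not informative, since the B-cell background list stood in the control macrophage-like and cDC1-like cells at 262% and 159% of its pooled level. The tumour value of 1.38 rests on unlike lists, B-cell in control (10.9% of pooled) and macrophage in knockout (3.48%). It thus does not compare the libraries on a like basis. With doublets kept the tumour ratio was 1.28 and the cDC1-like ratio 1.22. Naming each cell from its own markers gave 1.16 (macrophage-like) and 1.09 (cDC1-like). Clusters weighted alike gave 1.40 (tumour) and 1.30 (macrophage-like), and tumour cells without leukocyte UMIs 1.29. The tumour share of member UMIs, 82.7% and 64.3%, was 72.9% and 57.2% with the loose filter, 81.5% and 64.7% with the strict one, 77.2% and 59.9% with doublets kept, 79.5% and 63.8% at resolution 0.5, and 83.5% and 65.4% with cells named one by one. The 8 members above free RNA stayed 8 in all 7 alternatives of each library. H2-Oa in macrophage-like cells lost its place past 2-fold (0 members) with the loose filter, a minimum of 100 UMIs or a pseudocount of 5. Alternatives chosen after seeing the data left out clusters: neutrophil-like without cluster 5 gave 3 members and a ratio of 2.78, fibroblast-like without cluster 38 gave 0 members and a reversed ratio of 1.20, plasma-like without cluster 13 gave 2 members and 1.46, and macrophage-like without cluster 21 gave 1.33. The cause of the other changes was not tested. Few UMIs limit the ratios of H2-Oa and H2-Ob in tumour and macrophage-like cells, with at most 21 in a library.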
